A study of Gossypium hirsutum with 6 samples.

Results

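The probes GA_10dpa_fiberEST_11669 and GA_10dpa_fiberEST_03038, both described as Ras-related protein Rab11C, GA_10dpa_fiberEST_05078, described as a Ran-specific GTPase-activating protein, and GA_10dpa_fiberEST_07089, described as a GTP-binding protein, report on GTP-binding proteins and a GTPase regulator in the developing cotton fiber. They were chosen by description, and are 4 of 12262 named features on the array, of which 11882 have a value at every stage. All 4 members have a value at all 6 stages. The study grew *Gossypium hirsutum* L. cv. TM1, an Upland cotton line, in a greenhouse in randomized blocks, and took total RNA from its developing fibers. Fibers of 6 stages between 8 and 24 days post anthesis (dpa) were each expressed relative to fibers at 5 dpa, on 2-colour oligonucleotide arrays hybridized in a double loop with dye swaps. All stages share the cultivar, the growth conditions and the 5 dpa reference, and no treatment or mutant was used. For the comparison of phases, 8, 10 and 14 dpa were grouped here as stages of primary cell wall (PCW) synthesis and 21 and 24 dpa as stages of secondary cell wall (SCW) synthesis, with 17 dpa in neither, although elongation and the change of wall overlap in time.

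Small GTPases are molecular switches that are active when bound to GTP and inactive after its hydrolysis to GDP. Rab GTPases direct the traffic of membrane vesicles, and the Rab11 class, called RabA in Arabidopsis, acts between the trans-Golgi network, endosomes and the plasma membrane, the route along which wall polysaccharides and membrane proteins reach the cell surface. Ran GTPase drives transport through nuclear pores and takes part in spindle assembly in animals and yeast, where Ran-binding proteins of the Ran-specific GTPase-activating kind help to release cargo and to stimulate hydrolysis of GTP on Ran. The cotton fiber is a single epidermal cell of the seed coat that first elongates by depositing a primary wall and later fills with a cellulose-rich secondary wall.

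The descriptions come from the study's list of genes and are matches to other species' genes, joined here by probe number. Of the Rab11C probes, GA_10dpa_fiberEST_11669 was matched to AtRABA2c, also called AtRab11A, and GA_10dpa_fiberEST_03038 to AtRABA2b, and they are called RABA2c-matched and RABA2b-matched Rab11C below. GA_10dpa_fiberEST_05078, called the Ran regulator, and GA_10dpa_fiberEST_07089, called the GTP-binding protein, had no Arabidopsis match in that list, so that the family of the GTP-binding protein is not known here. Probes of close relatives can share signal, and the Rab11C probes are therefore uncertain as readouts of a single gene each. All 4 members belong to the list of 125 genes, called Set 1 by the study, that was selected for developmental regulation in these TM1 fibers and in those of another cotton species, Pima, and for a distance between the species at 17 and 24 dpa. The values of these samples thus entered the selection, and the change of the members over development is not independent evidence of regulation. The sequences and genome positions of the probes were not analysed here.

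Each stage is represented by 1 profile, in which a log2 ratio of 1 is a transcript level 2-fold higher than at 5 dpa. No replicate spread exists for these profiles, no test was made, and the values below are descriptions. In these whole-fiber samples, fewer cells of a type and less RNA per cell cannot be told apart. As a technical yardstick, 17 probe numbers that occur in duplicate among the entries were used, and the median absolute difference between such entries was 0.13, 0.25, 0.32, 0.42, 0.40 and 0.62 on the log2 scale at 8, 10, 14, 17, 21 and 24 dpa. The SD of these differences was larger, at 0.28, 0.80, 0.62, 0.88, 0.94 and 1.56. A gap wider than the median can therefore still lie within the spread. Each run of 6 values below follows the stages in this order.

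Each of the 4 probes was at least 2-fold higher than at 5 dpa at some stages, but not at the same ones. The RABA2c-matched Rab11C was at least 2-fold higher at 6 of 6 stages, the RABA2b-matched Rab11C at 4, and the Ran regulator and the GTP-binding protein at 3 stages each. The Ran regulator passed 2-fold at 14, 17 and 21 dpa, and the GTP-binding protein at 17, 21 and 24 dpa. No member was 2-fold lower than 5 dpa at any stage.

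**Figure D1:**
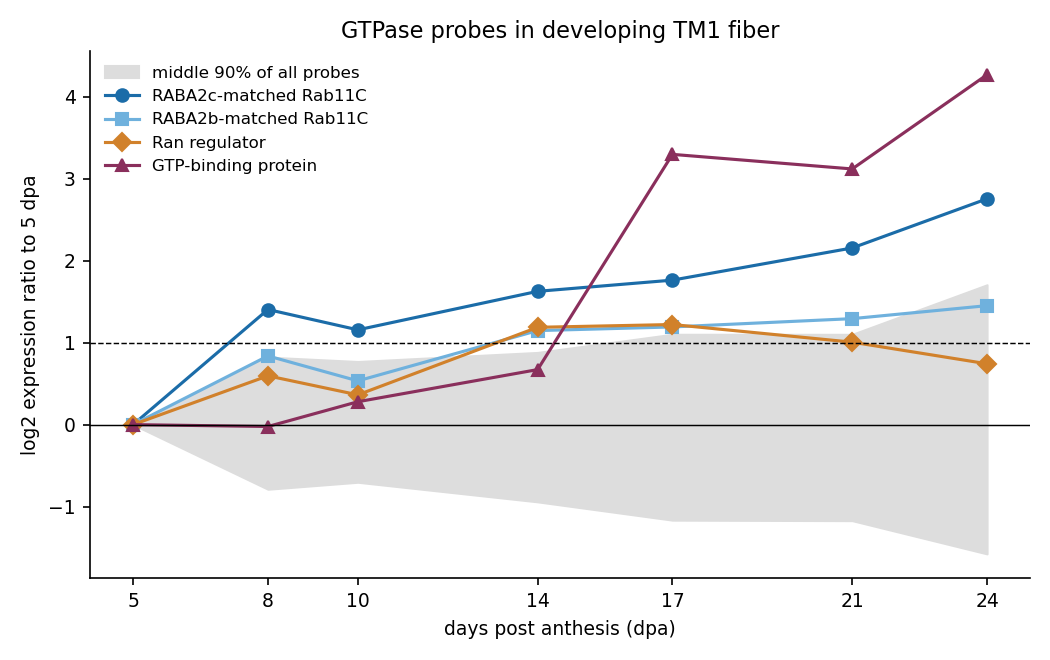
Log2 expression ratio to 5 dpa (vertical axis) of each probe against days post anthesis (horizontal axis), 1 profile per stage, with 5 dpa at 0, the 2-fold line dashed and the middle 90% of all 11882 probes shaded. RABA2c-matched Rab11C lies above the shading at every stage, and the GTP-binding protein lies inside it up to 14 dpa and far above it from 17 dpa, reaching 4.27 at 24 dpa.

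RABA2c-matched Rab11C had log2 ratios to 5 dpa of 1.40, 1.16, 1.62, 1.76, 2.15 and 2.75, from 8 to 24 dpa. Its transcript level was thus already 2.65-fold that of 5 dpa at 8 dpa and 6.74-fold at 24 dpa, with the lowest ratio, 2.23-fold, at 10 dpa. Being 2-fold higher at all 6 stages was shared by 67 of 11882 probes, 0.564% of them. Among all probes its ratio stood at the 98.6 percentile at 8 dpa and the 98.2 percentile at 24 dpa. Ordered by level, the stages ran 24, 21, 17, 14, 8 and 10 dpa. In that order none of the 5 gaps between neighbours was wider than the median difference of the double entries, although the gap of 0.60 between 24 and 21 dpa and that of 0.25 between 8 and 10 dpa came close to it.

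RABA2b-matched Rab11C followed a flatter course, with log2 ratios to 5 dpa of 0.84, 0.53, 1.15, 1.19, 1.29 and 1.45, from 8 to 24 dpa. It was highest at 24 dpa, at 2.73-fold the level of 5 dpa, and lowest at 10 dpa, at 1.45-fold. From 14 dpa on it changed little, and its 3 last steps, up to 17, 21 and 24 dpa, were 0.04, 0.10 and 0.16. The order of its stages was the same as for RABA2c-matched Rab11C. Of its 5 gaps, 1, that of 0.30 between 8 and 10 dpa, was wider than the double entries' median difference. That gap was below their SD of 0.80 at 10 dpa.

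The Rab11C probes differed from each other at every stage, RABA2c-matched Rab11C being the higher relative to 5 dpa. The log2 ratio of RABA2c-matched Rab11C minus that of RABA2b-matched Rab11C was 0.57, 0.62, 0.48, 0.57, 0.86 and 1.30, from 8 to 24 dpa, so the gap was 1.48-fold at 8 dpa and 2.47-fold at 24 dpa. At 8 dpa 1 of the 17 double entries differed by more than this pair, at 10 dpa 3 did, and at each later stage 4 did. The widening toward 24 dpa came with a wider spread of the double entries, whose median difference also was largest at 24 dpa. These are differences in the change since 5 dpa, and they say nothing of which of the probes detects more transcript.

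The Ran regulator was the only member whose ratio peaked in the middle of the series. Its log2 ratios to 5 dpa were 0.59, 0.36, 1.19, 1.22, 1.01 and 0.74, from 8 to 24 dpa. The highest level, 2.33-fold that of 5 dpa, was at 17 dpa, and the level at 24 dpa was 1.67-fold. Its step of 0.82 from 10 to 14 dpa was exceeded by 221 of 11882 probes. The later decline was smaller, with steps of -0.22 from 17 to 21 dpa and -0.26 from 21 to 24 dpa, and at 24 dpa its ratio stood at the 84.2 percentile of all probes. None of the 5 gaps between neighbours in the order of its stages (17, 14, 21, 24, 8 and 10 dpa) was wider than the double entries' difference. At 21 dpa its value of 2.01-fold lay just inside the 2-fold limit.

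The GTP-binding protein showed the widest range of the 4 members, 4.29 on the log2 scale or 19.6-fold, against 1.60 for RABA2c-matched Rab11C, 0.92 for RABA2b-matched Rab11C and 0.86 for the Ran regulator. Its log2 ratios to 5 dpa were -0.02, 0.28, 0.67, 3.29, 3.12 and 4.27, from 8 to 24 dpa. Its level was within 1.59-fold of that at 5 dpa through 14 dpa, and then 9.82-fold, 8.68-fold and 19.2-fold at 17, 21 and 24 dpa. Most of the change fell between 14 and 17 dpa, a step of 2.62 that 31 of 11882 probes exceeded, and a further step of 1.15 followed from 21 to 24 dpa, exceeded by 804 probes. At 8 dpa 6294 probes had a higher ratio than the GTP-binding protein, whereas at 17, 21 and 24 dpa only 37, 51 and 45 did. In the order 24, 17, 21, 14, 10 and 8 dpa, 4 of the 5 gaps were wider than the double entries' median difference, and the exception was the gap of 0.18 between 17 and 21 dpa. Only the gap of 2.45 between 21 and 14 dpa was also wider than the double entries' SD at both of its stages.

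**Figure D2:**
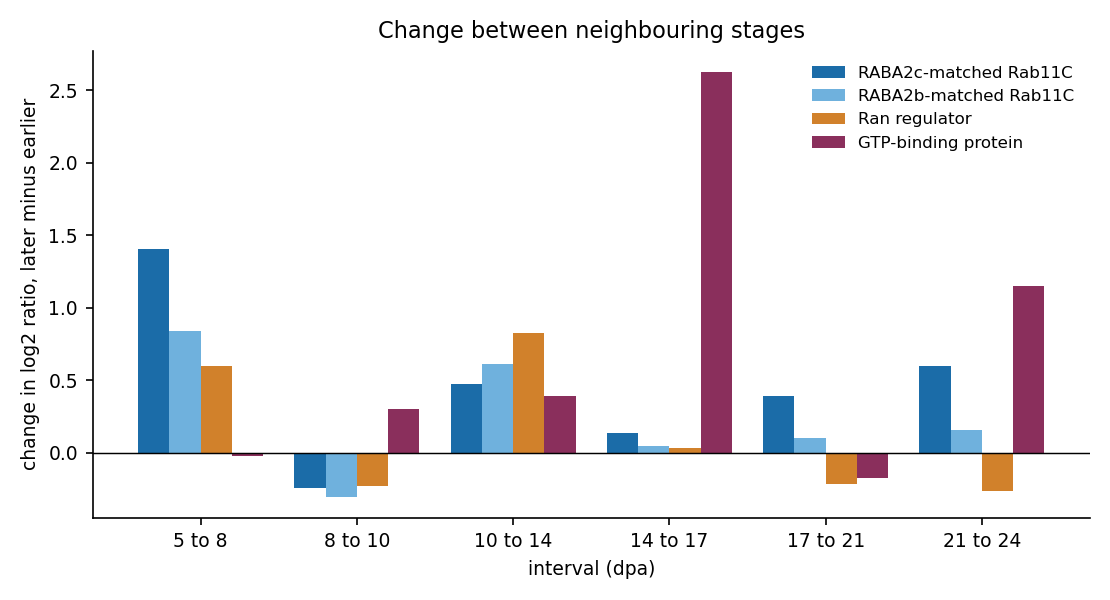
Change in log2 ratio (later minus earlier stage, vertical axis) over each interval between neighbouring stages (horizontal axis, dpa), 1 bar per probe. The bar of the GTP-binding protein from 14 to 17 dpa, 2.62, stands above all others, and from 8 to 10 dpa the other members have negative bars.

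The interval of the largest step was thus not the same for all members. RABA2c-matched and RABA2b-matched Rab11C both had it between 5 and 8 dpa, with steps of 1.40 and 0.84. The Ran regulator had it between 10 and 14 dpa, and the GTP-binding protein between 14 and 17 dpa. For RABA2b-matched Rab11C the step from 10 to 14 dpa, 0.61, was not far below, so the place of its largest step is uncertain. RABA2c-matched Rab11C had weak signal in the scanner files of 8 dpa, as given below. From 8 to 10 dpa the Rab11C probes and the Ran regulator had negative steps of -0.25, -0.30 and -0.23, whereas the GTP-binding protein had a positive step of 0.30. Neighbouring steps share the profile of the stage between them and are not independent.

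Averaged over the SCW stages 21 and 24 dpa, and over the PCW stages 8, 10 and 14 dpa, the GTP-binding protein had log2 ratios to 5 dpa of 3.69 and 0.31, a difference of 3.38 or 10.4-fold. A larger difference was found in 22 of 11882 probes. RABA2c-matched Rab11C had 2.45 in the SCW and 1.39 in the PCW stages, a difference of 1.06 or 2.08-fold that 547 probes exceeded. RABA2b-matched Rab11C had 1.37 and 0.84, a difference of 0.53 that 1615 probes exceeded. The Ran regulator had 0.87 in the SCW and 0.71 in the PCW stages, a difference of 0.16 that 4143 probes exceeded. A single entry's difference had an SD of 0.57 among the 17 double entries. The differences of RABA2b-matched Rab11C and the Ran regulator were within this SD. Those of RABA2c-matched Rab11C and the GTP-binding protein were beyond it, that of RABA2c-matched Rab11C by far less. Stages of a developmental series are not replicates, and the difference was not tested.

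Of the 4 members, 1, 1, 3, 4, 4 and 3 were at least 2-fold higher than at 5 dpa, from 8 to 24 dpa, against 3.20%, 2.82%, 3.79%, 5.90%, 5.97% and 11.3% of all probes. The member that passed at 8 and at 10 dpa was RABA2c-matched Rab11C, and the member that did not pass at 24 dpa was the Ran regulator. At least 2-fold lower were 0 members at each stage, against 2.77%, 2.08%, 4.26%, 7.09%, 7.02% and 12.3% of all probes, from 8 to 24 dpa. Since membership in Set 1 already rested on regulation in these fibers, the shares are given as background and nothing is read from their difference. Among the 60 described genes of Set 1 alone, the median percentile of the members over the stages was 83.3 for RABA2c-matched Rab11C, 70.8 for RABA2b-matched Rab11C, 67.5 for the Ran regulator and 75 for the GTP-binding protein, against 98.4, 95.4, 92.4 and 95.7 among all probes.

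The scanner files, from 7 arrays, show part of the signal that lay behind these ratios. The study describes more hybridizations than these for the cultivar, fitted together, so a single file does not stand for a stage's ratio. Each of 12 files holds 1 dye (Cy3 or Cy5) of an array, filed under a stage, and the labels do not settle which dye held the stage and which its partner, so signals are not assigned to stages. Each member was spotted in duplicate, none of its spots was marked as poor by hand, and signals are spot means less local background in scanner units. A probe was counted as detected in a file where its signal exceeded the median of the buffer spots plus 3 scaled median absolute deviations.

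RABA2c-matched Rab11C was detected in 11 of 12 files and the other members in 12 of 12, whereas 35.3% of all probes were detected in all 12 files and 53.5% in at least 11. It was not detected in the Cy3 file of 8 dpa, where its mean signal of 86.6 was 0.477 of the threshold, and in the Cy5 file of the same stage it was 1.45 times the threshold. Its median signal over the files was 6.18 times the threshold, against 10.9 for RABA2b-matched Rab11C, 7.74 for the Ran regulator and 15.9 for the GTP-binding protein, each relative to the same buffer spots. With the mean plus 3 SD of the buffer spots as threshold, RABA2c-matched Rab11C was detected in 2 files, RABA2b-matched Rab11C in 3, the Ran regulator in 0 and the GTP-binding protein in 5. The share of all probes detected at that threshold is not given here. Whether the members were weaker than other probes can therefore not be read from these counts. The files of 8 dpa thus held weak spots of RABA2c-matched Rab11C.

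The GTP-binding protein had its lowest signal, 317.6, in the Cy3 file of 21 dpa and its highest, 12630.7, in a Cy5 file of 17 dpa, and its lowest signal was still above the threshold. RABA2b-matched Rab11C ranged between 240.0 in the Cy3 file of 24 dpa and 3289.4 in a Cy5 file of 17 dpa. The Ran regulator ranged between 100.6 and 2600.6 in the same files as RABA2b-matched Rab11C. The Cy3 file of 24 dpa was the dimmest of all, with a median signal of 32.8 over its unflagged spots, against 156.7 to 589.7 in the other files, and 47.0% of probes were detected in it. The part of that file in the 24 dpa ratios was not tested.

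The duplicate spots of a file agreed closely for the GTP-binding protein and RABA2b-matched Rab11C, with a median ratio of the higher to the lower spot of 1.04 and 1.06 and a largest one of 1.27 and 1.19. For the Ran regulator the median was 1.12 and the largest 1.40. RABA2c-matched Rab11C had the least even spots, with a median of 1.18 and a largest ratio of 2.61, in the Cy3 file of 24 dpa, where its spots read 487.7 and 186.5. In the Cy3 file of 17 dpa its spots read 6472.2 and 3388.9. The highest ratio of RABA2c-matched Rab11C was at 24 dpa, and its spots disagreed in 1 of the files filed under that stage. Whether that file held the 24 dpa fibers or their partner is not settled, and its part in the ratio was not tested.

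**Figure D3:**
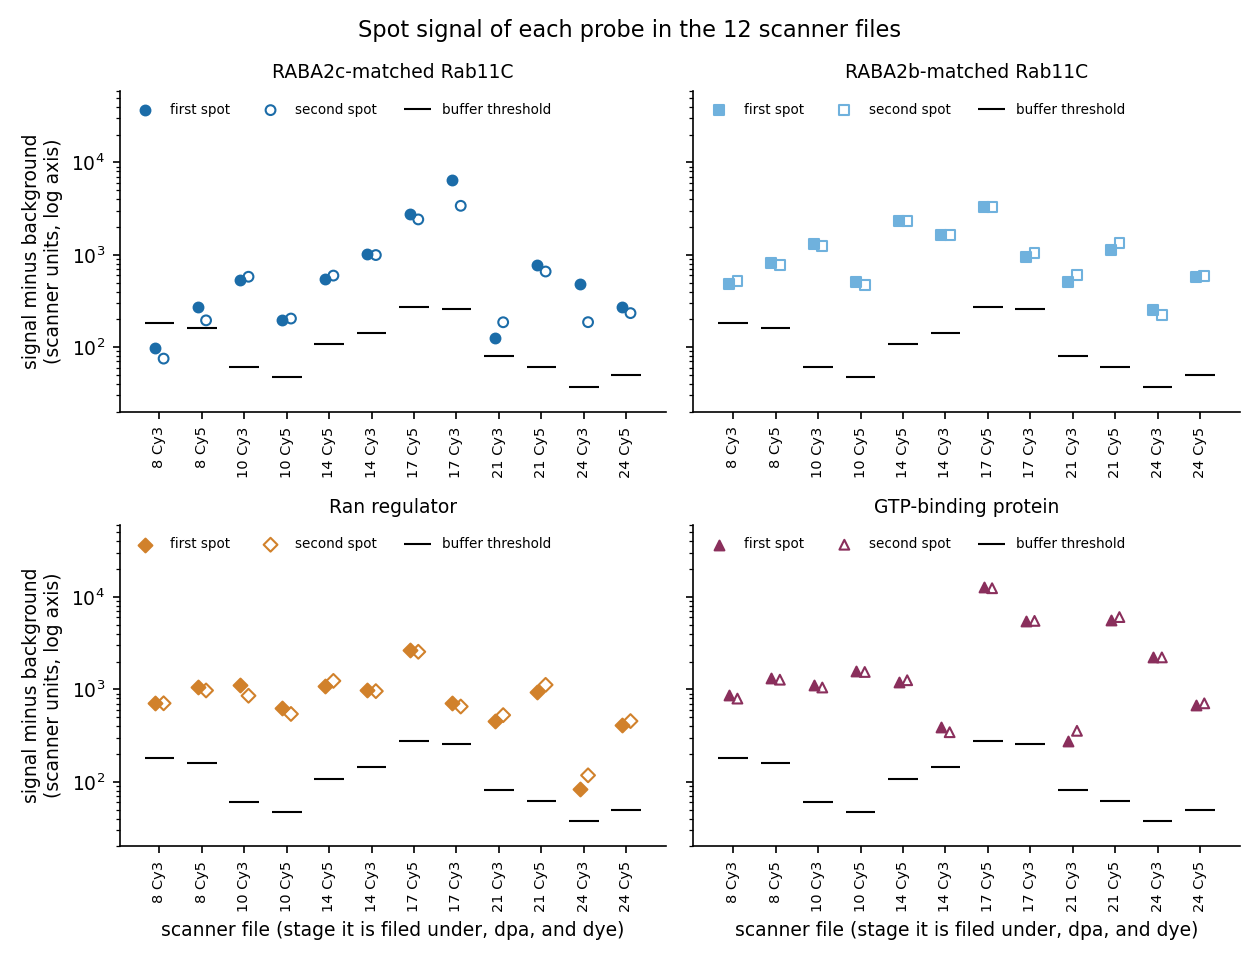
Background-corrected signal (scanner units, log axis) of the first and second spot of each probe in the 12 scanner files (horizontal axis, the stage a file is filed under and its dye), with the detection threshold from buffer spots as a bar. Only RABA2c-matched Rab11C falls below the threshold, in the Cy3 file of 8 dpa, and its spots lie apart in the Cy3 files of 17 and 24 dpa.

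On 5 arrays both dyes were present, and the size of the difference between the dyes could be taken without its direction. It was taken after background correction and loess normalization of the dyes. For the GTP-binding protein this difference was 0.45 on the log2 scale on the 8 dpa array, 0.95 on the 10 dpa array, 3.62 on the array whose dyes are filed under 14 and 17 dpa, 4.17 on the 21 dpa array and 3.90 on the 24 dpa array. On the 14 and 17 dpa array 0.119% of probes had a larger difference, on the 21 dpa array 0.0690% and on the 24 dpa array 0.0593%. After normalization its dyes thus differed at least 12.3-fold on the arrays with a file of 17, 21 or 24 dpa, and 1.36-fold and 1.94-fold on the 8 and 10 dpa arrays. On the 24 dpa array its signals before normalization were closer, 2220.5 in Cy3 and 692.7 in Cy5, so the size there rests on the normalization.

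RABA2c-matched Rab11C had dye differences of 0.24, 0.39, 0.30, 1.96 and 2.42 on the arrays of 8, 10, 14 and 17, 21 and 24 dpa. On the 8 dpa array its Cy3 signal was not above the buffer threshold, and its value on the 24 dpa array combined 2.95 at 1 spot and 1.89 at the other. Its median over the arrays, 0.39, was 1.25 with background subtracted and median centring and 0.86 without background correction, so the size of its dye difference depends on the treatment of the background. RABA2b-matched Rab11C had 0.35, 0.86, 0.03, 1.27 and 1.14 on these arrays, and the Ran regulator 0.31, 0.32, 0.34, 1.19 and 0.55. On the 24 dpa array the signals before normalization, in Cy3 and Cy5, were 337.1 and 253.8 for RABA2c-matched Rab11C. They were 240.0 and 578.5 for RABA2b-matched Rab11C, and 100.6 and 430.7 for the Ran regulator. After normalization RABA2c-matched Rab11C differed 5.36-fold there and the Ran regulator 1.46-fold, so these sizes also rest on the normalization. For each member the spots differed in the same direction on 5 of 5 arrays, and the median difference of all probes was between 0.03 and 0.24.

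**Figure D4:**
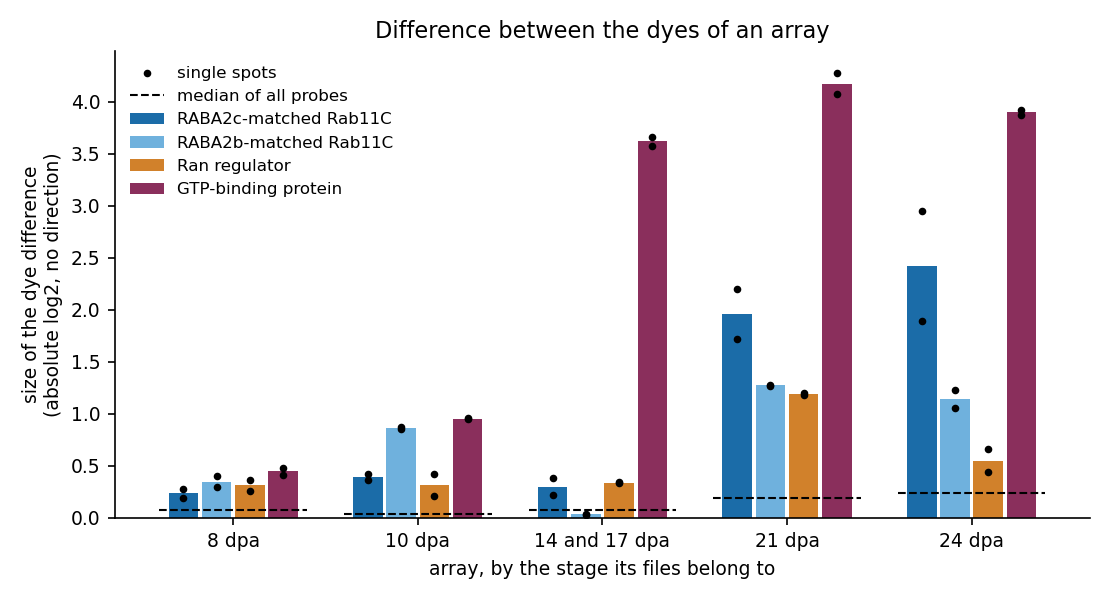
Size of the normalized log2 difference between the dyes (vertical axis, absolute, no direction) on each array with both dyes (horizontal axis, by stage). Bars show the mean of the spots of a probe, dots the single spots and a dashed line the median of all probes. The GTP-binding protein reaches 3.62 to 4.17 on the arrays of 17 dpa and later, and the spots of RABA2c-matched Rab11C are far apart on the 24 dpa array.

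Across the 6 stages, which share the 5 dpa reference, the profiles of the Rab11C probes had a Pearson correlation of 0.90 with each other. The GTP-binding protein had 0.89 with RABA2c-matched Rab11C and 0.84 with RABA2b-matched Rab11C, while the Ran regulator had 0.67 with RABA2b-matched Rab11C, 0.42 with the GTP-binding protein and 0.30 with RABA2c-matched Rab11C. These coefficients describe 6 points each. A correlation of at least 0.95 with the member was found for 247 of 11881 other probes (2.08%) in the case of RABA2c-matched Rab11C, 84 (0.707%) for RABA2b-matched Rab11C, 12 (0.101%) for the Ran regulator and 178 (1.5%) for the GTP-binding protein.

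Among 59 other described genes of Set 1, the course of the GTP-binding protein was most like those of the cytochrome c oxidase subunit II (probe GA_10dpa_fiberEST_02212, correlation 0.99), a mitochondrial respiratory enzyme, a putative ripening-related protein (GA_10dpa_fiberEST_09677, 0.98) and protease P27 (GA_10dpa_fiberEST_06430, 0.98). The cytochrome c oxidase subunit had log2 ratios to 5 dpa of 1.42, 3.35, 3.43 and 4.23 at 14, 17, 21 and 24 dpa, with a step between 14 and 17 dpa that was smaller than that of the GTP-binding protein. RABA2b-matched Rab11C was most like a xyloglucan endotransglycosylase, an enzyme that cuts and rejoins wall xyloglucan (GA_10dpa_fiberEST_12158, 0.97), a putative mitochondrial protein (GA_10dpa_fiberEST_09957, 0.94) and a Yippee-like protein (GA_10dpa_fiberEST_00794, 0.92). The xyloglucan endotransglycosylase had 1.22, 1.08 and 1.78 at 8, 10 and 14 dpa. Its dip at 10 dpa was smaller than that of RABA2b-matched Rab11C, 0.30, and than the double entries' median difference of 0.25 at that stage.

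RABA2c-matched Rab11C was most like a putative DNA-binding protein (GA_10dpa_fiberEST_10184), a putative anthranilate N-hydroxycinnamoyl/benzoyltransferase (GA_10dpa_fiberEST_10567) and a probable glutathione peroxidase (GA_10dpa_fiberEST_05938), each with a correlation of 0.92. The benzoyltransferase had ratios below 5 dpa at 8, 10 and 14 dpa, of -1.10, -0.53 and -0.78, where RABA2c-matched Rab11C had 1.40, 1.16 and 1.62, so the correlation reflects the course and not the level. Of these 3 genes, 0 remained among the closest 3 without 24 dpa and 1 by Euclidean distance. The Ran regulator was most like a thymidylate kinase (GA_10dpa_fiberEST_11110, 0.95), expansin 1, a wall-loosening protein (GA_10dpa_fiberEST_00974, 0.92), and a beta-tubulin (GA_10dpa_fiberEST_07246, 0.87). Expansin 1 had log2 ratios to 5 dpa of 0.44, 0.47, 1.26, 1.32, 1.20 and 1.06, with its highest value at 17 dpa as for the Ran regulator. No shared function or control follows from such likeness.

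**Figure D5:**
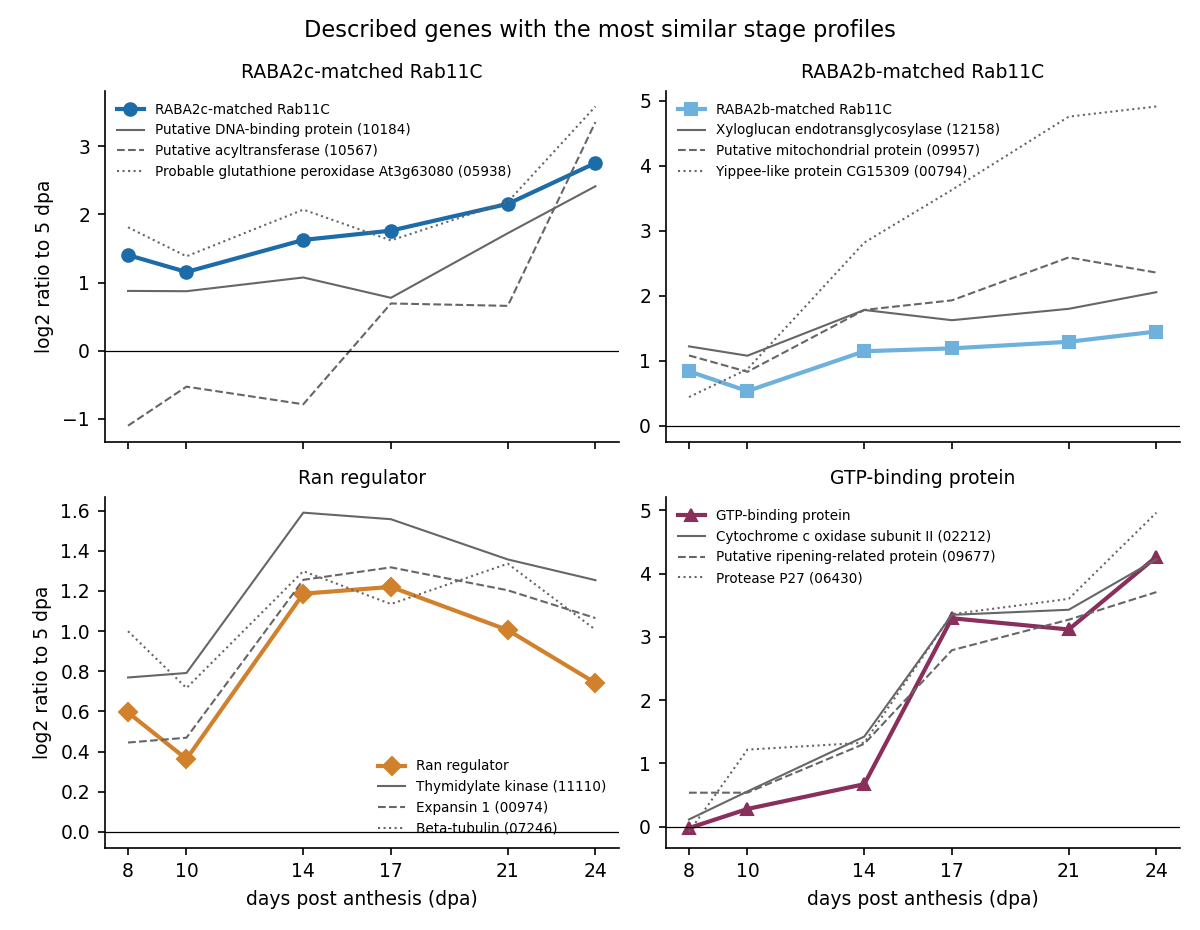
Log2 ratio to 5 dpa (vertical axis) against days post anthesis (horizontal axis) for each member, in colour, and the 3 described Set 1 genes with the highest Pearson correlation over the 6 stages, in grey, 1 profile per stage. The cytochrome c oxidase subunit II tracks the GTP-binding protein closely from 17 dpa, and the vertical axes differ between panels.

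Another small GTPase of Set 1, probe GA_10dpa_fiberEST_11797, has the same description, GTP-binding protein, as the member of that name. It was matched to AtRABA5e, of the same RabA class as the matches of the Rab11C probes. Its log2 ratios to 5 dpa were -0.25, -0.36, -0.29, -0.56, -0.62 and -0.88, from 8 to 24 dpa, below 5 dpa at each stage but never 2-fold lower, and it was detected in 11 of 12 files. At each stage its ratio was smaller in size than the SD of the double entries, which was 1.56 at 24 dpa. At 24 dpa it stood at -0.88, where the Rab11C probes stood at 2.75 and 1.45 and the GTP-binding protein at 4.27. The 1.45 of RABA2b-matched Rab11C was below that SD too, and an opposite course was not tested. Beta-tubulin, a GTP-binding subunit of microtubules, was 2-fold higher at 14, 17, 21 and 24 dpa, with 1.01 at 24 dpa.

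Of 3 calcium signalling genes of Set 1, 0 were 2-fold higher at any stage, and at 24 dpa both calcium-dependent protein kinases were 2-fold lower, at -1.36 (GA_10dpa_fiberEST_04766) and -1.64 (GA_10dpa_fiberEST_00016), while calmodulin, a calcium sensor, had 0.76. Among all probes 3.20%, 2.82%, 3.79%, 5.90%, 5.97% and 11.3% were 2-fold higher from 8 to 24 dpa. At 24 dpa 12.3% were 2-fold lower. The calcium list and the next one hold Set 1 genes, whose selection used these samples, and nothing is read from their counts. Of 9 Set 1 proteins of the wall or the plasma membrane, the kind of cargo that secretory traffic carries, 2, 2, 4, 3, 3 and 3 were 2-fold higher from 8 to 24 dpa. In that list 1 was lower at 10, 14 and 17 dpa, against 2.08%, 4.26% and 7.09% of all probes. The median of this list was highest at 14 dpa, at 0.92, and 0.43 at 24 dpa, against medians of 0.00 and -0.01 over all probes at these stages. A lipid transfer protein (GA_10dpa_fiberEST_12134) had 1.14, 2.45 and 2.22 at 17, 21 and 24 dpa, whereas a cellulose synthase (GA_10dpa_fiberEST_02992) stayed between 0.11 and 0.46.

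The fiber markers were expansin 1, thymidylate kinase, which also matched a cotton fiber expressed protein, and FbL2A. At 14, 17, 21 and 24 dpa 3 of 3 were 2-fold higher than at 5 dpa, against 3.79%, 5.90%, 5.97% and 11.3% of all probes. Expansin 1 and thymidylate kinase belong to Set 1, whose selection used these samples, so the count is no independent support. FbL2A had 7.83 at 24 dpa and was detected in 7 of 12 files. GhCesA-2, a cellulose synthase, had 1.71 at 24 dpa, and GhCesA-1 had 7.30 but was detected in only 3 of 12 files. Of 4 leaf features named for chlorophyll a/b-binding proteins, 0 were 2-fold higher at any stage, against 3.20% of all probes at 8 dpa and 11.3% at 24 dpa. At 8, 10 and 17 dpa 1 at a time was 2-fold lower, against 2.77%, 2.08% and 7.09% of all probes. Their ratios at 24 dpa lay between -0.61 and 0.49. A set of 5 features that represent no cotton gene (aaacC1, GFP, GUS, hph and npt-II), chosen after the data were seen, had log2 ratios between -0.57 and 2.95 at 8 dpa, -0.42 and 0.77 at 10 dpa, -2.34 and 1.17 at 14 dpa, -1.48 and 0.78 at 17 dpa, -4.05 and 0.96 at 21 dpa, and -1.06 and 3.58 at 24 dpa. The ratios of all 4 members at 8 dpa, 1.40 of RABA2c-matched Rab11C included, lie within the range at that stage, whose highest feature, hph, was detected in 2 of 12 files. The 24 dpa ratios of both Rab11C probes and the Ran regulator lie within the range at 24 dpa, and 4.27 of the GTP-binding protein lies above it. At 17 and 21 dpa the ratios of all 4 members lie above the range. At 10 dpa only RABA2c-matched Rab11C lies above it. At 14 dpa RABA2c-matched Rab11C and, at 1.19 against 1.17, the Ran regulator do, and the other members lie within it. The lowest and highest of these features, aaacC1 at -4.05 at 21 dpa and 3.58 at 24 dpa, was detected in 2 of 12 files. GFP was detected in 11 of 12 files, and GUS and npt-II in 8 each. Detection over the buffer by this threshold is thus not proof of a cotton transcript.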

How the data were processed

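Developing fibers of *G. hirsutum* cv. TM1 were profiled at 6 stages, each relative to 5 dpa. The authors deposited the profiles as log2 ratios, fitted by linear models in LIMMA to lowess-normalized signals, from which they had dropped spots flagged by hand, spots too close to buffer and discordant dye swaps, with local background taken off. The 12 scanner files, from 7 arrays, were deposited as unnormalized mean spot intensity beside the mean background intensity. Removal of weak and divergent spots by the authors can narrow the spread behind a ratio, and neither that spread nor the number of spots kept was held here, so the number of arrays limits the precision.

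The log2 ratios were used as deposited, and 380 features without values were left out. Columns of values without a sample numbered 0. With 1 profile per stage no p-value was computed, and probes were called at a 2-fold change. Dye differences were computed with limma 3.58.1 in R 4.3.3 (normexp, offset 50, loess), and all other values with numpy 2.4.6 and pandas 2.3.3. Scripts were tested on simulated data with known answers. The members and lists were chosen with earlier results of these data known. The named genes were the members, fixed lists of other GTP-binding, calcium signalling and wall or plasma membrane genes of Set 1, marker features, and the 3 described Set 1 genes most like each member. Genes named within a list beyond its counts were picked as examples. Alternatives were other fold limits, centring, filters on weak probes, other phases, thresholds, background corrections and measures of likeness.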

Additional observations from a re-analysis of the deposited data

How the results depend on the processing

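Of 112 alternative values, 24 moved beyond the limits set for them. Counts, percentiles and unsigned sizes have no direction to change, and the 6 differences between the Rab11C probes cannot move when a profile is centred. The filter on members detected in at least 6 files removed no member, so its 6 values could not move either. Stage medians lay between -0.0056 and 0.0044, so the 22 values with centring could hardly move. The share of values that moved is therefore no measure of stability. With a 1.5-fold limit 3 members were higher at 8 dpa, and with a 3-fold limit 0, 0, 1, 2 and 2 from 8 to 21 dpa. Among described Set 1 genes only, the median percentile was 70.8 for RABA2b-matched Rab11C, 67.5 for the Ran regulator and 75 for the GTP-binding protein, within a set selected for change. With the buffer spots' mean plus 3 SD as threshold, the kind named in the methods, the members were detected in 2 (RABA2c-matched Rab11C), 3 (RABA2b-matched Rab11C), 0 (Ran regulator) and 5 (GTP-binding protein) of 12 files. The share of all probes at that threshold is not given here, so these counts have no background to be set against. The median dye difference with background subtracted and median centring was 1.25 for RABA2c-matched Rab11C, 1.04 for RABA2b-matched Rab11C and 4.10 for the GTP-binding protein, and without background correction 0.86, 1.00 and 3.41, against 0.39, 0.86 and 3.62 with normexp and loess; the cause was not tested. Of the 3 most similar genes, RABA2c-matched Rab11C shared 1 by Euclidean distance, 0 without 24 dpa and 1 with 5 dpa set at 0, and RABA2b-matched Rab11C shared 0 by Euclidean distance and 1 without 24 dpa, so these lists depend on the measure and the stages. No paired analysis was possible because each stage has 1 profile, and for the same reason no replicate could be left out. Signal over the buffer limits every member, since how many files detect it depends on the threshold.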
